A study of Mus musculus with 2 samples.

Results

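The Gimap genes encode GTPases of immunity-associated proteins, a small family of GTP-binding proteins that lie side by side on mouse chromosome 6 and are expressed mainly in lymphocytes. The genes followed here were Gimap1, Gimap3, Gimap4, Gimap5, Gimap6, Gimap7, Gimap8 and Gimap9, taken as the array probes whose gene name in the scanner files equals one of these 8 symbols. Probes were found for 7 of the 8 genes, 10 probes in all of the 41174 gene probes of the design, which read 27975 named genes. No probe carried the name Gimap8, and this gene was not analysed here.

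The cells were sorted mouse regulatory T cells (Tregs), the CD4 T cells that carry the transcription factor Foxp3 and restrain immune responses, all on the C57BL/6 background. Bcl11b, a zinc finger transcription factor of T cells, had been removed from floxed alleles by 1 of 2 Cre recombinases. Cd4Cre deletes early, in T cell precursors of the thymus, whereas Foxp3Cre deletes only once Foxp3 is on. On the Cd4Cre array, Bcl11b-deficient cells of Bcl11bF/F/Cd4Cre/Foxp3-GFP+ mice were set against wild-type Foxp3-GFP+ cells, both sorted by the GFP reporter. On the Foxp3Cre array, Bcl11b-deficient cells of Bcl11bF/F/Foxp3Cre mice were set against wild-type Treg cells, for which the labels name no reporter. The array whose labels name Foxp3-GFP was taken as the Cd4Cre array, because the design text gives that reporter for the Cd4Cre mice. Each of the 2 wild-type pools came from 3 mice, and the number of mice in the deficient pools is not given in the sources used here. The labels do not say whether the wild-type mice carried a Cre. Each array compared 1 deficient pool in Cy5 with 1 wild-type pool in Cy3, with no dye swap, so a dye difference and the genotype cannot be told apart.

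Gimap proteins share a GTP-binding domain and sit mostly on intracellular membranes. They are known for their part in the survival and homeostasis of resting lymphocytes. Mice that lack Gimap5 lose peripheral T cells, and rats with a Gimap5 mutation are lymphopenic.

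Facts of the 2 arrays come before the genes. Of 43379 gene-probe spots, 21773 were well above background in the deficient channel and 24439 in the wild-type channel of the Cd4Cre array, and 20689 (deficient) and 23446 (wild type) were so with Foxp3Cre; 0 were saturated. All 10 Gimap probes were well above background in both channels of both arrays. The log2 ratio of deficient over wild type for Bcl11b itself was -2.46 with Cd4Cre and -1.82 with Foxp3Cre by its brighter probe, and -1.19 and -0.32 by the other. The deficient Cd4Cre pool went against its Treg label. The summed signal of 5 Treg markers was 9835 in the deficient pool, against 120948 in the wild-type pool, in the array's normalised intensity units. The sum of 6 myeloid markers was 455705 in the deficient pool and 42620 in the wild-type pool, with S100a8, S100a9 and Lyz2 at least 2-fold higher in the deficient pool, but Csf1r (-1.50) and Cd14 (-1.05) at least 2-fold lower. On the Foxp3Cre array the Treg markers summed to 29611 in the deficient pool and 33993 in the wild-type pool, and 6 salivary gland markers to 5434 in the deficient pool and 87232 in the wild-type pool. Such sums are weighted to the brightest probes. The Treg markers there were mixed by log2 ratio of the brightest probe. Ctla4 (1.22) and Ikzf2 (0.62) were higher in the deficient pool, and Gpr83 (-0.94), Il2ra (-0.37) and Foxp3 (-0.20) lower. The Foxp3Cre wild-type pool also had a lower Treg sum than the Cd4Cre wild-type pool, at 33993 against 120948. Foxp3 itself read 10.02 against 12.5 there (log2 signal). The B cell and myeloid sums were higher in the Foxp3Cre wild-type pool, at 69971 and 143623 against 22629 and 42620. The T cell sum was lower, at 598221 against 662380. These pools sat on different arrays, so array and pool cannot be told apart. Each value below is therefore given for each array on its own.

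The probes are shown because each gene's value rests on 1 short stretch of it. They are credited to the array design, 5′ to 3′, with positions on mm9 as in the scanner files. All are 60 bases long and span 87.3 kb of chromosome 6. The 2 Gimap3 probes share the 50 bases of which those printed are in capitals, so they are not independent readings. Between probes of different Gimap genes the longest shared run was 9 bases. Shown whole are the Gimap9, Gimap4 and Gimap7 probes named first, and of the others the first 30 bases.
Gimap9, chr6:48627839-48627898, plus strand: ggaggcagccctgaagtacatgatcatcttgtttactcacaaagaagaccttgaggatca
Gimap4, chr6:48640866-48640925, plus strand: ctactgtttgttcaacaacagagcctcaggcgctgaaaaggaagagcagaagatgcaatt
Gimap7, chr6:48674271-48674330, plus strand: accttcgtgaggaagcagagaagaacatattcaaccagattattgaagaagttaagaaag
Gimap7, dimmer probe, chr6:48668839-48668898, plus strand: atggatgacaggaaatacttgcttgatgtg
Gimap6, chr6:48651798-48651857, minus strand: tacagtgactaattctgaacagtatatgtc
Gimap1, chr6:48693409-48693468, plus strand: gctcagagctttaatgattcacagtgcagt
Gimap5, chr6:48703501-48703560, plus strand: attaatttcactctcatttgattcccatgg
Gimap5, dimmer probe, chr6:48697390-48697449, plus strand: ccggtacttaacaaggaagacaagaaagac
Gimap3, dimmer probe, chr6:48715024-48715083, minus strand: CTGCATTTTATTGTGGATTGGGATCACTCA
Gimap3, chr6:48715034-48715093, minus strand: gtttaatgctCTGCATTTTATTGTGGATTG

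By each gene's brightest probe, which the counts here use, Gimap6 and Gimap3 were the members that read lowest in deficient cells on average over the 2 arrays. Gimap7 and Gimap9 read near or above the wild-type level by that probe. The other Gimap7 probe was lower in deficient cells, at -1.03 (2.04-fold) with Cd4Cre and -0.60 with Foxp3Cre. In the Cd4Cre system 1 of the 7 measured genes, Gimap6, was lower by 2-fold or more in deficient cells and 0 were at least 2-fold higher, while 10.6% of the 15875 detected genes were that far down and 11.4% that far up. In the Foxp3Cre system 2 of the 7, Gimap6 and Gimap3, were at least 2-fold lower and 0 were at least 2-fold higher, beside 11.5% and 2.93% of the 15198 detected genes. Gimap6 was the member at least 2-fold lower on both arrays, as were 4.56% of the 14382 genes detected on both; 0 of the 7 were at least 2-fold higher on both, beside 1.34% of genes. All 7 genes had a log2 ratio below 0 on the Cd4Cre array under loess (52.8% of detected genes), but 4 of the 7 after median centring. On the Foxp3Cre array 4 of the 7 were below 0 (54.6% of detected genes), and 2 of the 7 after median centring. On both arrays 4 of the 7 were below 0 (37.9% of genes), and 1 after median centring. The counts after median centring have no share of all genes beside them. Median centring also raised the median of all detected genes, from -0.05 to 0.07 with Cd4Cre and from -0.08 to 0.16 with Foxp3Cre. Below that median lay 4 of the 7 with Cd4Cre and 3 with Foxp3Cre after median centring, against 7 and 4 under loess. With 1 pool per genotype on each array there is no replicate check within a Cre system, and no difference between genotypes on 1 array was tested. In sorted cell pools, fewer cells of a type and less RNA per cell cannot be told apart.

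Log2 signals and ratios were taken from each gene's brightest probe after loess normalisation within the array. The levels of different genes are not compared, since each probe binds with its own strength. The scanner software's own error of a log2 ratio was between 0.20 and 0.28 for these genes on the Cd4Cre array and between 0.20 and 0.23 on the Foxp3Cre array. It covers a single array and not the spread between mice. Spots of the same probe repeated on an array had a median SD of 0.0563 with Cd4Cre and 0.0713 with Foxp3Cre (log2 ratio, 245 repeated probes).

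Gimap6, which binds a member of the GABARAP family of autophagy proteins, had a log2 signal of 14.77 in the deficient Cd4Cre pool and 16.79 in the wild-type pool. In the Foxp3Cre system it was 15.48 in the deficient pool and 16.60 in the wild-type pool. The log2 ratio was -2.02 (4.06-fold lower, software error 0.28) with Cd4Cre and -1.12 (2.17-fold lower, software error 0.23) with Foxp3Cre. Both deficient pools lay below both wild-type pools. It ranked 183 from the lowest of 15875 genes on the Cd4Cre array and 1296 of 15198 on the Foxp3Cre array. Centred on the array median in place of loess, the ratio was -1.0 on the Cd4Cre array and 0.07 with Foxp3Cre, so the direction of the second one depends on the normalisation.

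Gimap3, a mitochondrial member of the family, had a log2 signal of 14.10 in the deficient Cd4Cre pool and 14.96 in the wild-type pool. The Foxp3Cre deficient pool read 13.21 and the wild-type pool 14.53. The ratio was -0.85 with Cd4Cre and -1.32 (2.50-fold lower, software error 0.23) with Foxp3Cre. Median centring kept both below 0, at -0.12 and -0.66. The dimmer probe gave -0.77 and -1.26.

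Gimap1, which mature B and T cells need, had a log2 signal of 15.61 in the deficient Cd4Cre pool and 16.09 in the wild-type pool. The Foxp3Cre deficient pool read 15.02 and the wild-type pool 15.87. The ratio was -0.47 with Cd4Cre and -0.84 with Foxp3Cre after loess, but 0.57 and 0.20 after median centring.

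Gimap5, a lysosomal membrane protein, read 14.39 in the deficient Cd4Cre pool and 14.55 in the wild-type pool (log2 signal). In the Foxp3Cre system the deficient pool read 14.30 and the wild-type pool 15.19. The ratio was -0.17 with Cd4Cre and -0.90 with Foxp3Cre, and 0.55 and -0.03 after median centring. Its dimmer probe gave 0.19 and -0.21, so the 2 Gimap5 probes differ in direction on the Cd4Cre array.

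Gimap4, which affects the pace of T cell death, had log2 signals of 13.02 in the deficient Cd4Cre pool and 13.80 in the wild-type pool. The Foxp3Cre pools read 13.28 in deficient cells and 13.22 in wild-type cells. Its ratio was -0.78 (1.72-fold lower, software error 0.22) with Cd4Cre, and 0.05 with Foxp3Cre, below the software error of 0.20; after median centring it was -0.33 and 0.59. The wild-type Cd4Cre pool was the high one, and the other 3 pools lay between 13.02 and 13.28.

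Gimap7 read 11.12 in the deficient Cd4Cre pool and 11.34 in the wild-type pool. In the Foxp3Cre system it read 12.23 in the deficient pool and 11.46 in the wild-type pool, the highest of its 4 signals being that of the deficient Foxp3Cre pool. Its ratio was -0.22 with Cd4Cre and 0.76 (1.69-fold higher, software error 0.22) with Foxp3Cre, and -0.15 and 1.06 after median centring. The dimmer probe, in another transcript, gave -1.03 and -0.60, so on the Foxp3Cre array the 2 probes point in opposite directions.

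Gimap9 had a log2 signal of 14.30 in the deficient Cd4Cre pool and 14.44 in the wild-type pool. The Foxp3Cre deficient pool read 14.66 and the wild-type pool 14.20. The ratio was -0.14 with Cd4Cre and 0.46 with Foxp3Cre (software errors 0.20 and 0.21), and 0.56 and 1.25 after median centring. On the Cd4Cre array the 2 signals differed by less than the software error.

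**Figure D1:**
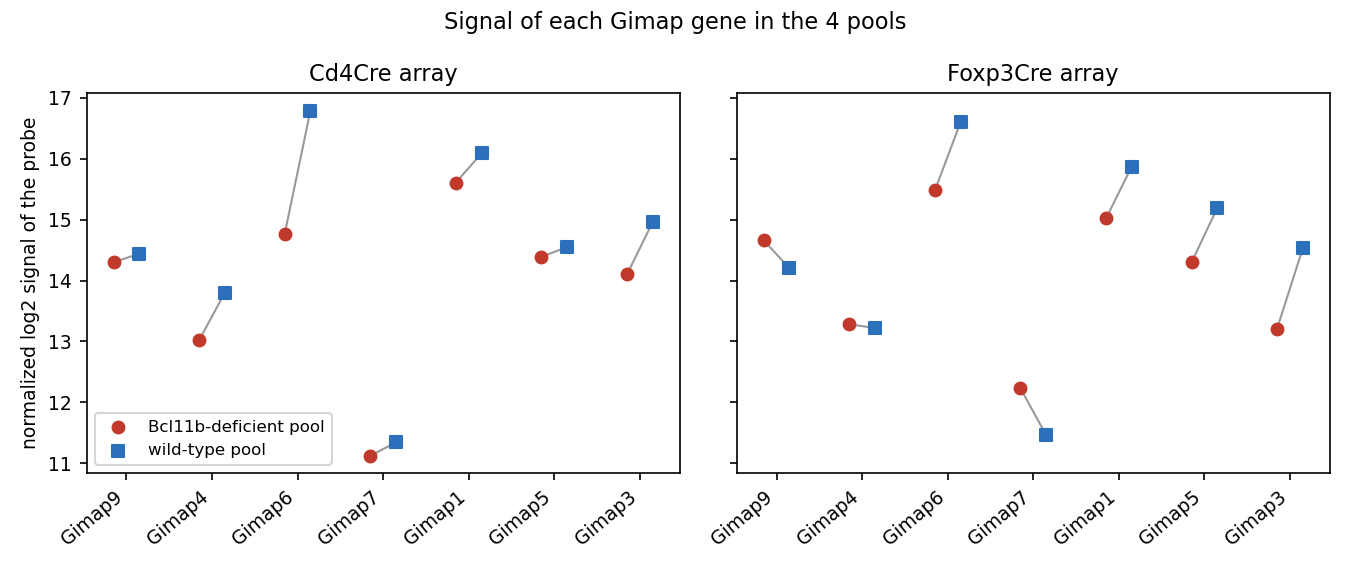
Log2 signal of the brightest probe of 7 Gimap genes after loess and Aquantile normalisation, with the genes in chromosome order on the horizontal axis and a panel for each array; red circles are Bcl11b-deficient and blue squares wild-type pools, 1 pool each, with no error bar. Gimap6 on the Cd4Cre array has the steepest line, joining 14.77 (deficient) and 16.79 (wild type), and heights of different genes are not comparable.

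The median log2 ratio of the 7 genes was -0.47 on the Cd4Cre array, against -0.05 over all detected genes, and -0.84 on the Foxp3Cre array, against -0.08. After median centring the median was -0.12 with Cd4Cre and 0.20 with Foxp3Cre, where all genes had 0.07 and 0.16, so on the Foxp3Cre array its sign turned. The scanner software's normalisation gave -0.49 and -0.81. The Gimap signals are bright, where loess and median centring differ; the difference, loess minus median-centred, lay between -1.04 and -0.08 on the Cd4Cre array and between -1.18 and -0.30 on the Foxp3Cre array.

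**Figure D2:**
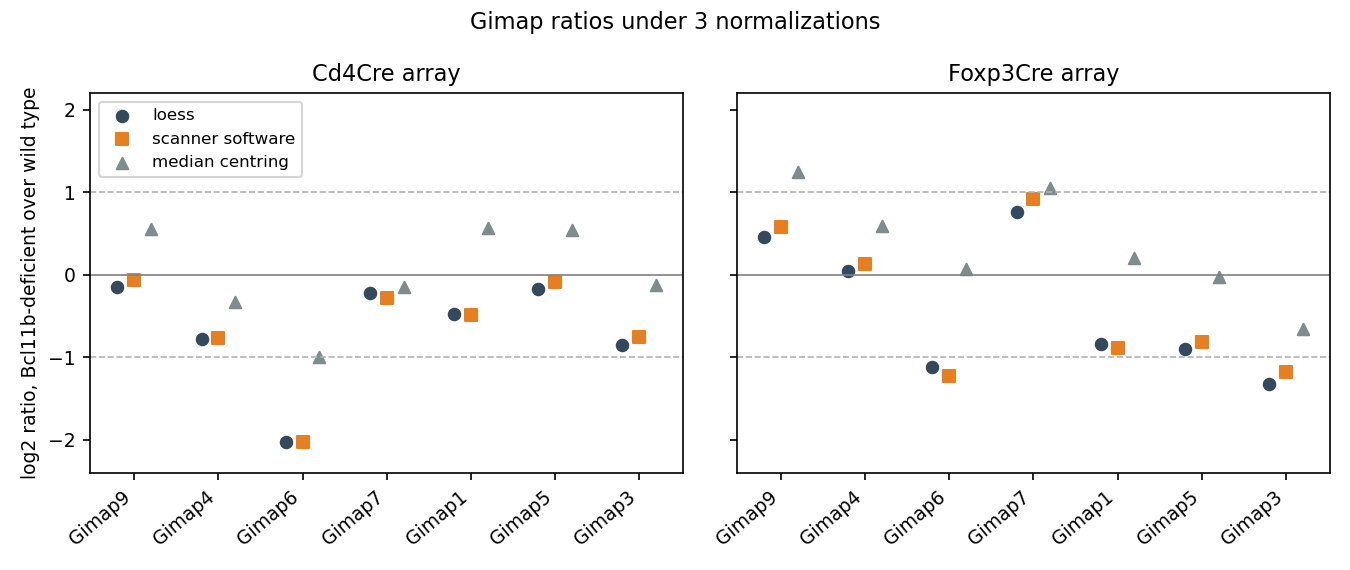
Log2 ratio of deficient over wild type for each of 7 Gimap genes (brightest probe) under loess (circles), the scanner software's normalisation (squares) and median centring (triangles), with a panel for each array; the solid line is 0 and the dashed lines are 2-fold. Triangles lie above circles for every gene, and Gimap6 with Foxp3Cre is at -1.12 under loess and at 0.07 under median centring.

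The mean log2 ratio over both arrays was tested against 0 with limma, adjusted over 14382 genes by the Benjamini-Hochberg method, a fit in which any Cre effect enters the error. Of all genes 0 passed an adjusted p of 0.05, and 3256 (22.6%) had an unadjusted p under 0.05. The mean of Gimap6 was -1.57 ± 0.36 (SE, n = 2 arrays; limma adjusted p = 0.1), below 0 on both. The mean of Gimap3 was -1.09 ± 0.34 (SE; limma adjusted p = 0.128), below 0 on both, and that of Gimap1 was -0.66 ± 0.33 (SE; limma adjusted p = 0.28). The other means were -0.53 for Gimap5, -0.36 for Gimap4, 0.27 for Gimap7 and 0.16 for Gimap9, with limma adjusted p between 0.394 and 0.812. The fit has 1 residual degree of freedom. Its SE and p draw on the spread of all tested genes as well as on the gene's own values on the 2 arrays. A p above the threshold does not show that a gene was unaffected.

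Set in their order along the chromosome, the probes fell into 2 groups by how their ratios differed between the Cre systems. The difference of log2 ratios, Cd4Cre minus Foxp3Cre, was between -0.98 and -0.43 for the 5 probes of Gimap9, Gimap4, Gimap6 and Gimap7, the genes at one end of the cluster. It was between 0.37 and 0.73 for the 5 probes of Gimap1, Gimap5 and Gimap3, at the other end. Gimap6 and Gimap3, whose probes are on the minus strand, fell in different groups. The probes of the 2 groups did not overlap, also not under the software's normalisation (-1.20 to -0.63, and 0.39 to 0.73) or median centring (-1.21 to -0.50, and 0.18 to 0.58). Over all 14382 genes the median difference was 0.14, 42.0% of the differences were below 0, and the quartiles were -0.33 and 0.63. The split was noticed after the values were seen and has no test, and the difference between Cre systems has 1 array on each side. The groups were formed from these same differences, and the other normalisations use the same 2 arrays. The lack of overlap is therefore a description and no support for the split. The 2 Gimap3 probes share most of their bases and are not independent readings.

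**Figure D3:**
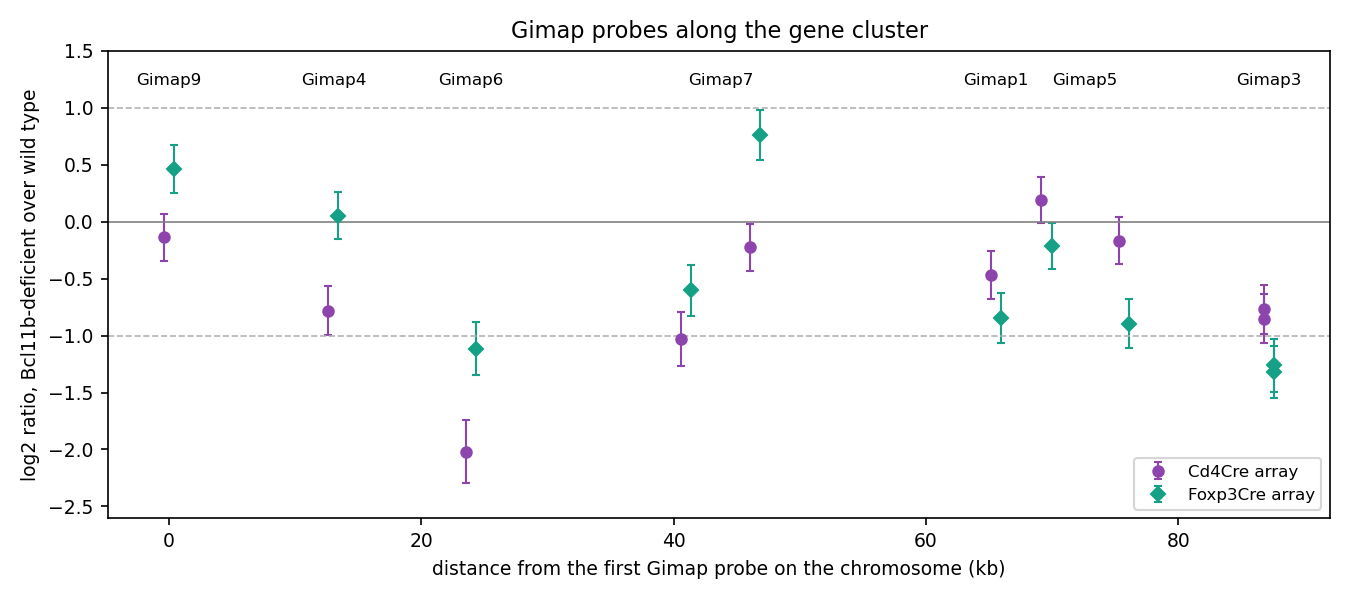
Log2 ratio of deficient over wild type (loess) of the 10 Gimap probes against their distance in kb from the first probe; circles are the Cd4Cre array and diamonds the Foxp3Cre array, drawn slightly apart, and bars are the scanner software's single-array error. Dashed lines are 2-fold; the diamonds lie above the circles for the 5 probes of Gimap9, Gimap4, Gimap6 and Gimap7 and below them for the 5 of Gimap1, Gimap5 and Gimap3.

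**Figure D4:**
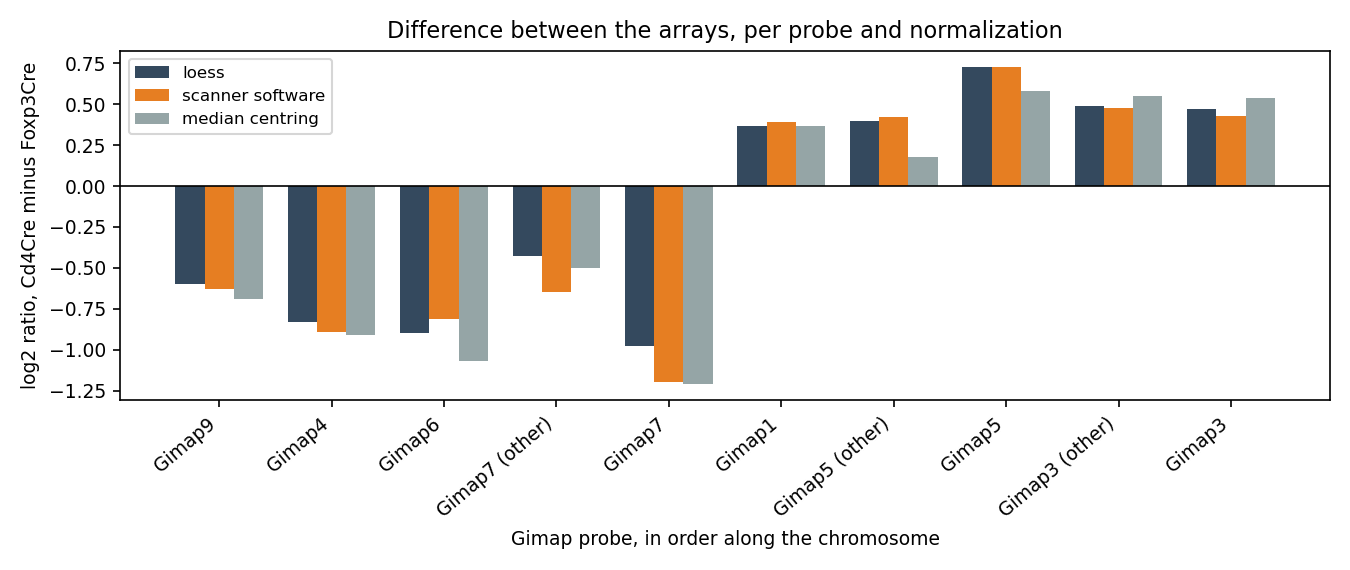
Difference of log2 ratios, Cd4Cre minus Foxp3Cre, for the 10 Gimap probes in chromosome order under loess, the scanner software's normalisation and median centring; bars start at 0 and carry no error, and "other" marks a dimmer probe. The 5 probes from Gimap9 to Gimap7 are below 0 and the 5 from Gimap1 to Gimap3 above 0 under all 3 normalisations.

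The signals behind that split differed between the Cre systems in deficient and in wild-type pools. The systems sat on separate arrays, so a difference between pools and one between arrays cannot be told apart here. The log2 signal of the brightest probes, Cd4Cre minus Foxp3Cre, was between -1.11 (Gimap7) and 0.89 (Gimap3) in deficient pools and between -0.64 (Gimap5) and 0.57 (Gimap4) in wild-type pools. For the brighter Gimap7 probe the difference between systems lay mostly in the deficient signals (-1.11, against -0.12 in the wild-type pools). For the dimmer one the difference lay more in the wild-type signals (0.44 in the deficient pools, against 0.87). For the brighter Gimap5 probe it lay mostly in the wild-type signals (0.09 in the deficient pools, against -0.64). The dimmer Gimap5 probe differed in both, at -0.35 in the deficient pools and -0.75 in the wild-type pools.

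The sequence upstream of the members was searched for 5 motifs, each on both strands, in the 250 bases before the transcription start (RefSeq, GRCm38.p6). The run AGGAAG, 1 form of the ETS motif, was present in 6 of the 7 measured members, all but Gimap6, and in 29.5% of 32851 promoters of the same length. Other forms of the ETS motif, and of the motifs below, were not searched. The Gimap6 stretch holds the run GGAAG after a C in place of the A, so it is not shown to lack an ETS site. The RUNX motif TGTGGT was present in 3 of 7 (Gimap1, Gimap4 and Gimap7) and in 14% of promoters. The forkhead motif TAAACA was present in Gimap3, 1 of 7, beside 12% of promoters. The Ikaros motif TGGGAA was in 0 of 7, beside 21.6%, and the E-box CAGNTG in 3 of 7 (Gimap5, Gimap7 and Gimap9), beside 44.8%. No 2 matches overlapped. A match is only a run of letters, and a promoter without a match is not shown to lack a site. The promoters of Gimap6 and Gimap3, which read lowest, and of Gimap4, which holds 3 matches, are shown with RUNX and ETS matches in capitals.
Gimap6, GRCm38.p6 chr6:48708245-48708494, minus strand: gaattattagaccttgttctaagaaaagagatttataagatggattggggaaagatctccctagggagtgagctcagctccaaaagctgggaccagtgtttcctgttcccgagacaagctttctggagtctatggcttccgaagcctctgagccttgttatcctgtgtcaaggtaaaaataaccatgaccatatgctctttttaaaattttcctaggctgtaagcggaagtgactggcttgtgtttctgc
Gimap3, GRCm38.p6 chr6:48770852-48771101, minus strand: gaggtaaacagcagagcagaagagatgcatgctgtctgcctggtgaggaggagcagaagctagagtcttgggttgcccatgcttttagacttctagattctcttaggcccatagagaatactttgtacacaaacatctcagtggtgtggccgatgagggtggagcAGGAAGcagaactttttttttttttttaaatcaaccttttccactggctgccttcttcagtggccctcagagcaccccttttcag
Gimap4, GRCm38.p6 chr6:48684328-48684577, plus strand: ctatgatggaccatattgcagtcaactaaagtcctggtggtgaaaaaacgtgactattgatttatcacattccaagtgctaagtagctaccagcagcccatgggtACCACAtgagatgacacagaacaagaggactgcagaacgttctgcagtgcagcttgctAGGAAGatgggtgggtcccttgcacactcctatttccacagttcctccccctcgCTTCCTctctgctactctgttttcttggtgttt

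Genes beside the cluster on chromosome 6 were read from a list, without a test of its difference from the cluster. Of 8 such genes 4 were detected with Cd4Cre and 5 with Foxp3Cre. On the Cd4Cre array 3 of the 4 were at least 2-fold higher and 0 lower, with a median of 2.02. On the Foxp3Cre array 1 was lower and 1 higher, with a median of 0.58. Of all detected genes, 10.6% were at least 2-fold lower and 11.4% higher with Cd4Cre, and 11.5% and 2.93% with Foxp3Cre (loess). The same shares apply to the list and marker counts below. Tmem176a read 2.37 and 0.92 and Tmem176b 2.50 and 0.58, each above 0 on both arrays under loess, the software's normalisation and median centring. Lrrc61 read -0.52 and -1.10 and Repin1 1.68 and -0.32. By its brightest probe Atp6v0e2 had a wild-type channel not well above background on the Foxp3Cre array and was at least 5.76-fold higher in the deficient pool there. By its other probe it read 0.59. Lrrc61 also depended on the probe with Foxp3Cre, from -1.10 to -0.26. Of those detected on both arrays none passed the limma test, and Atp6v0e2 was not in it. Tmem176a and Tmem176b are expressed in myeloid and dendritic cells, though not only there. The myeloid marker sum was higher in the deficient Cd4Cre pool, with Csf1r and Cd14 lower there. The part of any cell type in these ratios was not tested.

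Reported partners of Gimap proteins and survival genes, the Bcl2 family, the GABARAP and LC3 family and Gsk3b, were read next. Of 12 genes, 0 were at least 2-fold lower and 0 higher on either array, with medians of -0.06 (Cd4Cre) and -0.28 (Foxp3Cre), and 0.39 and 0.08 after median centring. Mcl1, which protects against apoptosis, read -0.77 and -0.99, and Bcl2, another survival gene, -0.80 and -0.21 by its brightest probe. The 3 Bcl2 probes ranged from -1.92 to -0.80 with Cd4Cre and from -0.96 to -0.21 with Foxp3Cre, and the Mcl1 probes from -0.99 to -0.17 with Foxp3Cre. Gabarapl2, a reported Gimap6 partner, read 0.83 and 0.44, with its other probe at -0.53 with Cd4Cre, and Bax, which promotes apoptosis, 0.76 and 0.29. Mcl1 turned sign under median centring on both arrays, at 0.32 and 0.07.

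Other GTPases of immune cells were read for comparison. Of 15 genes, 4 were at least 2-fold lower on the Cd4Cre array and 0 higher, with Gbp2 at -1.07, Igtp at -1.06 and Gbp3 at -1.03 among the 4. After median centring these were -0.38, 0.20 and -0.66. On the Foxp3Cre array 0 were lower and 0 higher. The medians were -0.71 and -0.10, or -0.10 and 0.68 after median centring. Igtp, an interferon-inducible GTPase, read -0.43 on the Foxp3Cre array, and 0.83 there after median centring. Mx1, an antiviral GTPase, read 0.55 and -0.51.

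The fourth list held genes of naive and resting T cells. Of 12 genes, 6 were lower by at least 2-fold with Cd4Cre and 7 with Foxp3Cre, beside 10.6% and 11.5% of detected genes. At least 2-fold higher were 0. The medians were -0.97 and -1.15, and 0.12 and -0.02 after median centring. Of the 12, 4 were at least 2-fold lower on both arrays, namely Foxo1, Foxp1, Bach2 and Satb1, beside 4.56% of genes. Foxo1, which drives the quiescence and homing programme, read -2.04 and -1.55, and Foxp1 -1.48 and -1.28. Bach2, which restrains effector differentiation, read -2.21 and -1.42, and Satb1, a chromatin organiser, -1.07 and -1.98. After median centring none of the 4 was 2-fold lower on both arrays: Foxo1 read -1.07 and -0.63, Foxp1 -0.77 and -0.60, Bach2 -1.66 and -0.98, and Satb1 0.03 and -0.89. The other Foxo1 probe gave -1.14 and -0.70. Il7r, the receptor of the survival cytokine IL-7, read -0.32 and 0.14, with its 3 probes between -0.32 and 0.59 with Cd4Cre, and Slfn2, which keeps T cells quiescent, -0.15 and -0.51; both lay above 0 on both arrays after median centring.

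**Figure D5:**
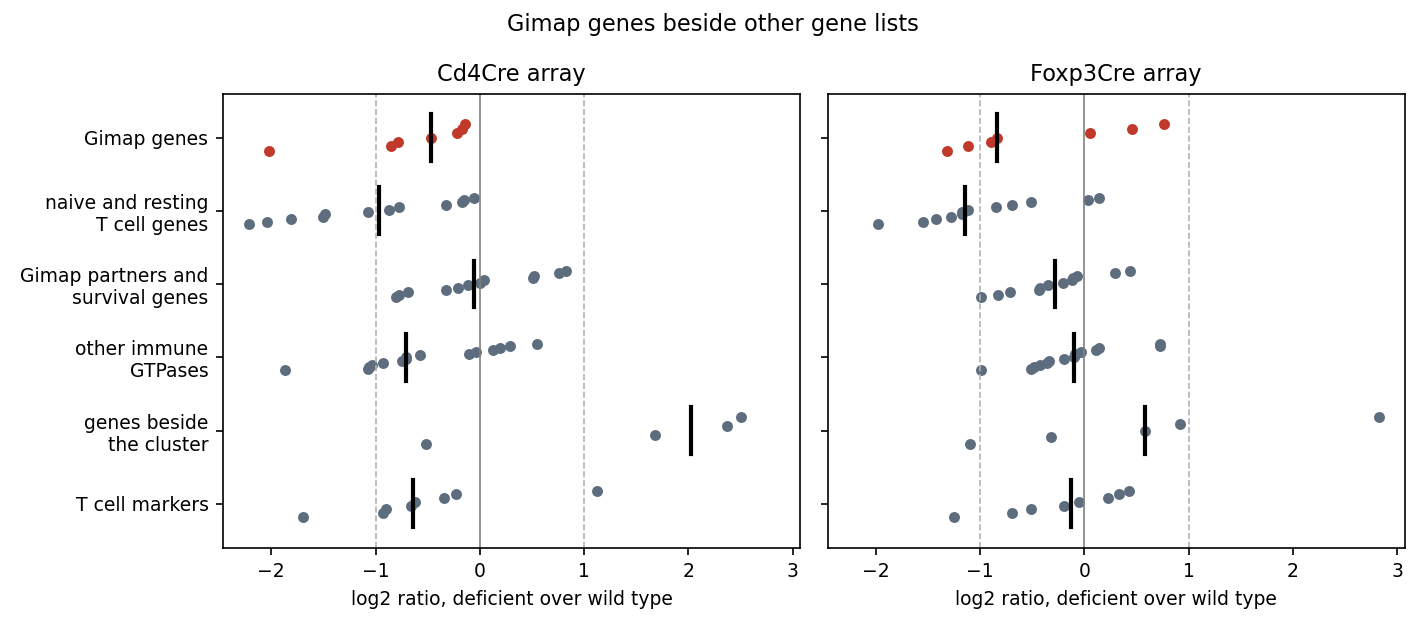
Log2 ratio of deficient over wild type for each detected gene of the Gimap family (red) and of 5 other lists, with a panel for each array (loess, brightest probe); points are spread vertically by rank, black bars are list medians, the solid line is 0 and the dashed lines are 2-fold. The Gimap medians are -0.47 with Cd4Cre and -0.84 with Foxp3Cre; the rightmost Foxp3Cre point, Atp6v0e2, has a wild-type channel not well above background.

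Markers of T cells and of other cells differed between the pools that gave these ratios. The summed T cell markers were 512067 in the deficient and 662380 in the wild-type Cd4Cre pool, and 468649 in the deficient and 598221 in the wild-type Foxp3Cre pool. Of 8 T cell markers, 1 was at least 2-fold lower and 1 higher with Cd4Cre, and 1 lower and 0 higher with Foxp3Cre; the medians were -0.64 and -0.13, and 0.06 and 0.78 after median centring. On the Cd4Cre array all 5 Treg markers were lower in deficient cells by 2-fold or more, and all 4 granulocyte markers at least 2-fold higher. Granulocyte markers summed to 33668 in the deficient and 1026 in the wild-type Cd4Cre pool, and to 20874 in the deficient and 6283 in the wild-type Foxp3Cre pool. NK cell markers summed to 106609 in the deficient and 8179 in the wild-type Cd4Cre pool, and to 23264 and 19526 in the deficient and wild-type Foxp3Cre pools. B cell markers summed to 63263 in the deficient and 22629 in the wild-type Cd4Cre pool, and to 69918 and 69971 in the deficient and wild-type Foxp3Cre pools. The 2 CD8 T cell markers summed to 63074 (deficient) and 25891 (wild type) with Cd4Cre, and to 56780 and 56026 with Foxp3Cre. Myeloid markers summed to 250056 in the deficient and 143623 in the wild-type Foxp3Cre pool, though 3 of the 6 had a log2 ratio below 0 there. Whether a share of other cells moved the Gimap ratios was not tested.

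The genes whose 4 pool signals, centred over the pools, lay nearest the median profile of the Gimap genes (Euclidean distance over 12439 genes) were Rap1gds1 at 0.0662, Tulp3 at 0.0859, Atp8a1 at 0.0866, Fbf1 at 0.0918 and Smad5 at 0.0938. Their ratios were between -0.70 and -0.59 on the Cd4Cre array and between -0.59 and -0.55 on the Foxp3Cre array. The members themselves lay between 0.367 (Gimap1) and 1.23 (Gimap7) from their own median. The genes named above were picked as the nearest of the 12439, so their smaller distances and similar ratios follow from that choice. The distances of the members were not ranked among all genes, so whether the family keeps together in profile was not tested.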

How the data were processed

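Two-colour Agilent mouse arrays measured 1 Bcl11b-deficient pool in Cy5 against 1 wild-type pool in Cy3 for each of 2 Cre systems. Images were read with Agilent Feature Extraction 10.5.1.1 (Cd4Cre) and 10.7.3.1 (Foxp3Cre), per the file headers, and the submitters' processing notes name 10.5.1. The authors deposited spot and background intensity in each channel, a log10 ratio (Cy5 over Cy3) from the scanner software, an error score for it, a single-array p-value and spot flags. The deposited log10 value table equalled the scanner's ratio (largest difference 0, median 0 on each array). Probe positions are on mm9, per the file headers.

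From the deposited intensity, log2 ratios were computed with normexp (offset 50) and loess in limma 3.58.1 under R 4.3.3; control spots had weight 0, and outlier spots (137 and 155) were left out. Probes were named through a RefSeq table of GRCm38.p6 (24844 by accession, 6045 by symbol, 1810 by synonym, 8475 kept the file's name). Each gene took the value of its brightest probe, and counted as detected if 1 channel or more of that probe passed the software's background test. Signals per channel are after loess and Aquantile. Where only 1 channel was above background the fold is a bound, open to dye bias.

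A 2-fold count was made on each array with no test, since each system has 1 array. The limma fit tested the mean of both arrays against 0 (1 residual degree of freedom). Its SE and p-values are moderated: each gene's own spread is combined with the spread of all tested genes. The labels say nothing about separate cultures, so both spreads are between these pools only. The script was tested on simulated data. The members and gene lists were chosen with earlier results of these data known. The text names every member with all its probes, from each of the 4 gene lists the 2 lowest and 2 highest genes by mean log2 ratio and those past 2-fold on both arrays, the 5 genes nearest in profile, and Bcl11b; a few GTPases are counted in their list and not reported here. Gbp2, Gbp3, Atp6v0e2, and the split along the locus, were picked once their values were known. The alternatives were an offset of 10, no background subtraction, the software's ratio, the value table, median centring, the mean over probes, no filter and a stricter filter, keeping outlier spots, and an intensity trend.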

Additional observations from a re-analysis of the deposited data

Results flagged for a closer look

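Gimap4, Gimap7 and Gimap9 had log2 ratios of opposite sign in the 2 Cre systems, which is why they are listed. Gimap4 read -0.78 with Cd4Cre and 0.05 with Foxp3Cre. Gimap7 read -0.22 and 0.76 by its brighter probe, and Gimap9 -0.14 and 0.46. The dimmer Gimap7 probe was below 0 on both arrays, at -1.03 and -0.60, and at -1.07 and -0.57 after median centring. After median centring Gimap4 (-0.33 and 0.59) and the brighter Gimap7 probe (-0.15 and 1.06) still had opposite signs. Gimap9 then lay above 0 on both arrays (0.56 and 1.25). Each system has 1 array, and the difference between them was not tested. The Foxp3Cre value of Gimap4 and the Cd4Cre value of Gimap9 are below the software error of 0.20.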

How the results depend on the processing

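Of 228 recomputed log2 ratios, means and medians of the Gimap genes, 14 turned sign: 9 of 23 under median centring in place of loess, 2 with the mean over a gene's probes and 3 with 1 array left out. Many of the 228 could not turn. No filter, the stricter filter, keeping outlier spots and the intensity trend gave the main values again. The value table repeated the software's ratio. The share that turned over all 228 is therefore no measure of stability. Median centring turned Gimap1, Gimap5 and Gimap9 with Cd4Cre (0.57, 0.55 and 0.56) and Gimap1 with Foxp3Cre (0.2), and gave means of -0.47 for Gimap6, -0.39 for Gimap3 and 0.90 for Gimap9. It gave a Gimap median of -0.12 with Cd4Cre and 0.2 with Foxp3Cre, with 0 genes at least 2-fold lower and 2 higher there, and put Gimap6 at 0.07 on the Foxp3Cre array. It gave means over both arrays of 0.39 for Gimap1, 0.13 for Gimap4 and 0.26 for Gimap5. Over all genes it moved the share at least 2-fold lower and higher to 8.31% and 18% on the Cd4Cre array (10.6% and 11.4% under loess) and to 6.72% and 13.4% on the Foxp3Cre array (11.5% and 2.93%); the software's normalisation gave 18.7% and 15.1%, and 13.3% and 7.61%. Averaging all probes of a gene gave a Foxp3Cre median of -0.55 and a Gimap7 mean of -0.27; the other Gimap7 probe reads lower. Leaving out 1 array leaves the value of the other: the mean of Gimap4 ranged from -0.78 to 0.05, of Gimap7 from -0.22 to 0.76 and of Gimap9 from -0.14 to 0.46. The limma fit called 0 genes under the main setting and every alternative but median centring (328 genes) and the stricter filter on dim probes (39 genes of 12446), and the adjusted p of Gimap6 ranged from 0.0585 to 0.435 over the alternatives; the cause was not tested. No paired analysis was possible because each Cre system has 1 array, beyond the pairing of 2 pools within an array that the ratios already use. All 10 probes were well above background in both channels, and the number of arrays (2) limits the precision.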
